A study of Mus musculus with 12 samples.

Results

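The 10 genes described here are Jun, Junb, Jund, Fos, Fosb, Egr1, Ier2, Ier5, Atf3 and Myc, chosen by name as immediate early and AP-1 genes out of 54532 genes in the table. All 10 were found in it, and 8 of them passed the filter on low values, an FPKM of at least 1 in at least 3 of the libraries fitted. FPKM scales fragments by gene length and by the mapped reads of a library, so levels may be compared between genes. Fos and Fosb did not pass.

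Limb buds of mouse embryos at E12.5 were compared between 2 genotypes. Control embryos (cHet) carried Mettl14 wt/flox and knockout embryos (cKO) carried Mettl14 flox/flox. METTL14 is a subunit of the enzyme that writes N6-methyladenosine (m6A) on mRNA. From each lysate, RNA of the whole cytoplasmic fraction (input) and RNA of the polysome fraction of a sucrose gradient were sequenced, with 3 biological replicates in each of the 4 groups, 12 libraries in all. The Cre driver, the deleted exons, whether embryos were pooled, and the embryos' sex are not given in the sources used here, and the controls carry 1 floxed allele too. A change in bulk tissue cannot tell fewer cells of a type from less RNA per cell.

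Immediate early genes are transcribed within minutes of a growth factor or stress signal, from promoters that are already poised, without new protein synthesis. Their mRNAs are typically short-lived, and many carry AU-rich elements in the 3′ UTR. JUN and FOS proteins pair through leucine zippers to form AP-1, which binds DNA. JUN proteins can pair with each other, whereas FOS proteins need a JUN partner. In developing limbs AP-1 acts in growth plate cartilage, and MYC in growth and proliferation. Dissociation or dissection can itself induce these genes.

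The 3′ UTRs of 9 of the 10 genes held the pentamer ATTTA, the core of the AU-rich element. Jun and Fos had 4 copies each, Atf3 had 3, Junb, Egr1, Ier5 and Myc had 2 each, Jund and Fosb had 1 each, and Ier2 had 0. Of the 11872 protein-coding genes tested with an annotated coding transcript, 69.7% had at least 1, with any transcript lacking a 3′ UTR counted as 0. Fos also held the nonamer TTATTTATT, which 7.93% of those genes held. The stretches below are 25 bases of the 3′ UTR on mm10, read 5′ to 3′ on the strand of the gene, with the ATTTA copies in capitals. They are shown because these genes did not all move in one direction on polysomes. The Jun stretch lay at chr4:95049209-95049233 (minus strand), Junb at chr8:84977129-84977153 (minus), Jund at chr8:70700361-70700385 (plus), Fos at chr12:85477103-85477127 (plus) and Myc at chr15:61990137-61990161 (plus).
Jun: ATTTAtaatcataggaaagATTTAg
Junb: atatttgtgtATTTAacagggaggg
Jund: attccgccctATTTAtgtttctact
Fos: tgttttcaATTTATTTAttaagatg
Myc: acagatttgtATTTAattgtttttt

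Ier5 and Jun had the most negative fitted differences of the 8 tested members on control polysomes, so the 250 bases before their start sites are shown, from RefSeq's promoter table on GRCm38.p6. In both, the table's start site was the 5′ end of the gene in the files. Capitals mark CCAAT, on either strand, and, in Jun, TGACATCA, an AP-1-like site through which JUN is known to act on its own gene. The Jun stretch lay at chr4:95052223-95052472 and the Ier5 stretch at chr1:155099637-155099886, both on the minus strand.
Jun: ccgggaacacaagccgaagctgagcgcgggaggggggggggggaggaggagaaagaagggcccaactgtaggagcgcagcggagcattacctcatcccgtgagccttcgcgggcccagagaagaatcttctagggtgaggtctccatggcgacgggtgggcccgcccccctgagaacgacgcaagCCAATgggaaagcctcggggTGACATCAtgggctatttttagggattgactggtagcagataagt
Ier5: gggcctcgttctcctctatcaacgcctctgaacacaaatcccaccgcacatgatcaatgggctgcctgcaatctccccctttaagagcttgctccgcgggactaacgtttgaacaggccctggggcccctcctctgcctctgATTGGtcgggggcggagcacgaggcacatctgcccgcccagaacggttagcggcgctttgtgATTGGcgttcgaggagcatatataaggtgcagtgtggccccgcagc

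Of the 10 members, 7 were in the promoter table: Ier5, Atf3, Jun, Fosb, Jund, Junb and Fos. Over both strands of the table's windows, TGACATCA stood in 3.62% of all 32851 promoters and, among the members, in Jun. CCAAT stood in 37.4% of all promoters and in Jun, Junb, Ier5 and Atf3. TATAAA stood in 13.6% and in Junb and Fos, and TTACGTCA, a variant of the cyclic AMP response element, in 0.499% and in Atf3. The CArG box, the site of serum response factor, stood in 1.63% and in none of the 7 windows. These windows reach 250 bases before the start site, so a box further upstream could not be seen. Egr1, Ier2 and Myc were not in the table, so no box of theirs could be seen either. For Jund, Atf3, Junb and Fosb, 4 of the 7, the table gives another start site than the gene's 5′ end in the files.

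Depth ran from 10349912 assigned reads (cHet polysome replicate 2) to 30068823. Mettl14 itself was 4.03 to 4.09 FPKM in cHet input and 1.26 to 3.32 in cKO input, lower in all 3. On polysomes it was 2.73 to 3.29 FPKM across both genotypes and did not separate them. On the first principal component of 13610 genes, which took 51.9% of the variance, the input libraries lay at 36.2 to 41.5 and the polysome libraries at −35.5 to −53.8, except cKO polysome replicate 1, at −3.97. On the second component cKO input replicate 3 lay apart, at 63.0. Fitted cKO differences of Jun, Junb, Jund, Egr1 and Ier5, and some genotype differences, are therefore also given without cKO polysome replicate 1. The cKO differences of Ier2, Atf3 and Myc are given only with it. All 10 limb mesenchyme markers reached 1 FPKM in every group.

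In cHet input the members spanned a wide range of levels. Jund averaged 54.2 ± 3.08 FPKM (SD, n = 3), above 96.2% of protein-coding genes. Ier2 followed at 47.3 ± 3.15 FPKM, then Jun at 22.6 ± 0.273 and Ier5 at 22.3 ± 0.256, whose ranges overlapped. Myc averaged 9.37 ± 0.791 FPKM, and Egr1 (2.67 ± 0.246) and Junb (2.55 ± 0.286) overlapped. Atf3 averaged 1.66 ± 0.120 FPKM and Fos 1.01 ± 0.0803. Fosb was lowest, at 0.0867 ± 0.0497 FPKM, above 33.1% of protein-coding genes. On cHet polysomes Atf3 stood above Junb and Egr1, which overlapped again, and Jun and Ier5 no longer overlapped.

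**Figure D1:**
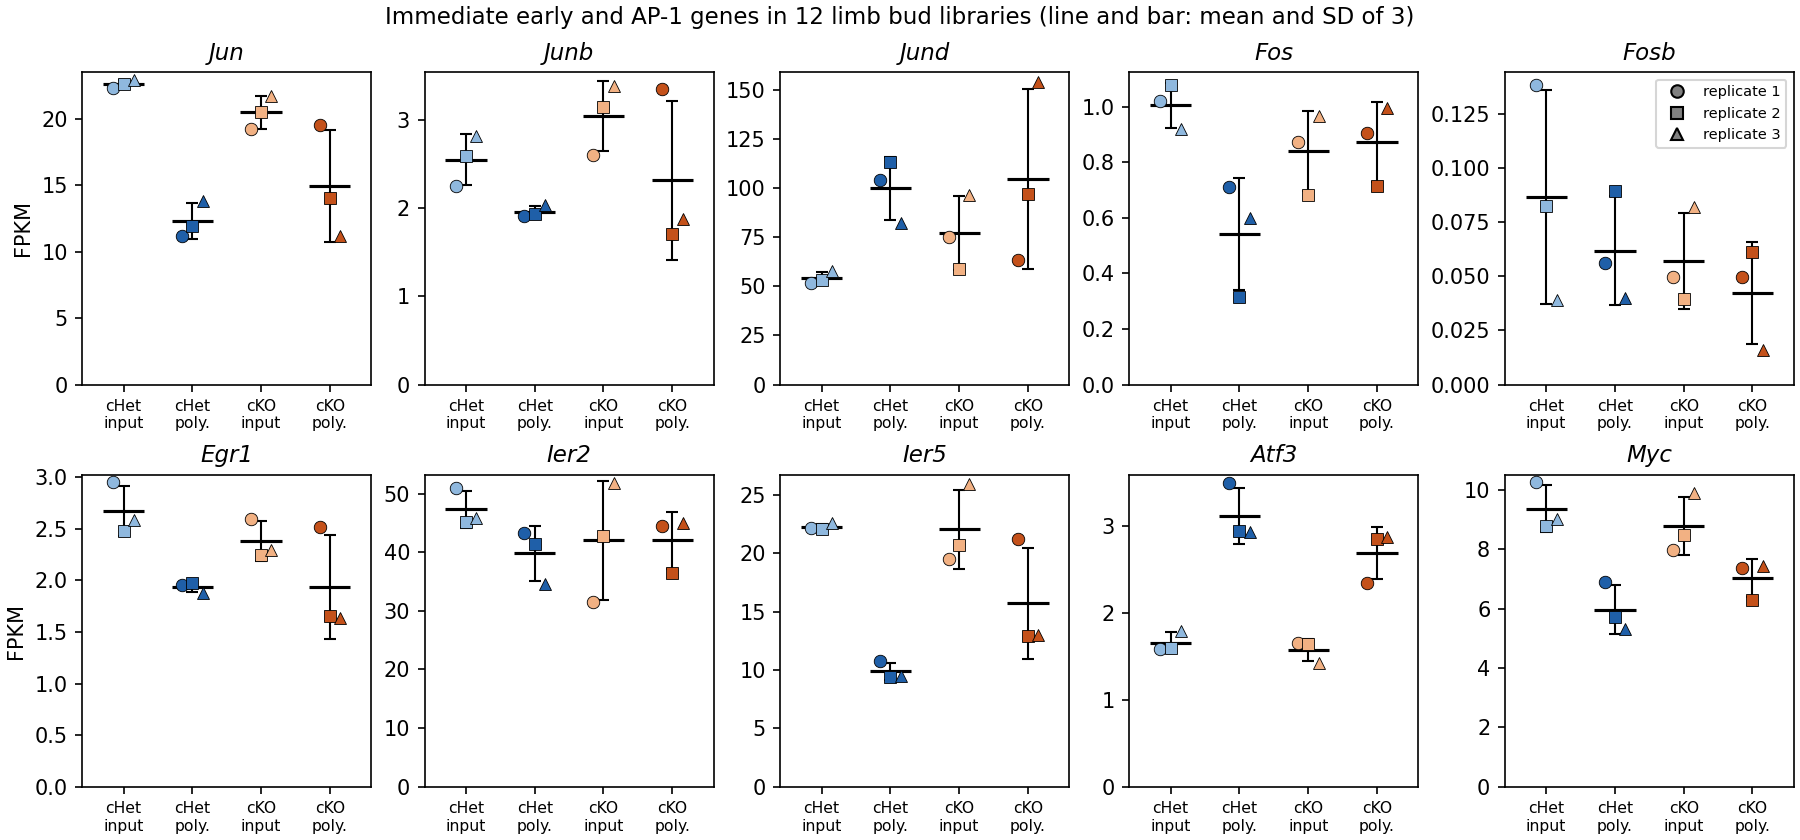
FPKM (vertical axes, from 0, a scale for each gene) of the 10 genes in the 4 groups on the horizontal axis. Points are libraries, with the replicate number by shape, and lines and bars are the mean and SD of 3. Jun and Ier5 fall from input to polysomes in cHet and Jund and Atf3 rise, while cKO polysome replicate 1 (circle) lies near its input for Jun and Ier5.

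Jun, the founding AP-1 subunit, was lower on polysomes than in input in controls. Jun lies at chr4:95049034-95052222 on mm10 and is a single-exon gene, and 232 of its 3189 exonic bases lie opposite the antisense gene Junos, with the same doubt on counting as for Junb and Jund below. Its cHet input libraries gave 22.3, 22.6 and 22.9 FPKM, and its cHet polysome libraries 11.2, 11.9 and 13.8. The groups did not overlap. The fitted difference was −0.88 on the log2(FPKM + 0.1) scale (SE 0.18, limma adjusted p = 0.00161), and Jun was lower in 3 of 3 lysates. In cKO the input libraries gave 19.2, 20.5 and 21.7 FPKM and the polysome libraries 19.5, 14.1 and 11.2. Replicate 1 was as high on polysomes as in input, and the groups overlapped. The cKO difference was −0.49 (SE 0.18, adjusted p = 0.0516). Without cKO polysome replicate 1 it was −0.70 (adjusted p = 0.00195).

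Junb, a JUN family member often opposed to JUN in its targets, was low. It lies at chr8:84974484-84978718 and shares 173 of its 2301 exonic bases with Prdx2 on the other strand, an abundant gene at 164 to 250 FPKM. No source used here says whether counting used strand, and reads of the 2 genes cannot be told apart on the shared bases. Junb gave 2.25, 2.59 and 2.82 FPKM in cHet input and 1.91, 1.94 and 2.04 on cHet polysomes, from 48 to 186 reads. The groups did not overlap, and the difference of −0.36 (SE 0.22) did not pass, with an adjusted p of 0.187. In cKO it gave 2.61, 3.15 and 3.39 FPKM in input and 3.35, 1.71 and 1.89 on polysomes. Replicate 1 was high on polysomes, at 3.35 FPKM, and the other 2 lysates were lower there. The cKO difference was −0.43 (adjusted p = 0.149), and −0.72 without cKO polysome replicate 1 (adjusted p = 0.00401).

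Jund, the JUN family member that is made steadily in most cells, rose on control polysomes. It lies at chr8:70698949-70700616, and 877 of its 1668 exonic bases lie opposite the antisense gene Gm11175, which was listed at 0 in all 12 libraries. How reads on those bases were counted is unknown here, so the level of Jund, and its rank and share, may be understated. The cHet input libraries gave 51.8, 53.3 and 57.7 FPKM and the cHet polysome libraries 104, 113 and 82.1. Polysome libraries all lay above input, and the difference was 0.87 (SE 0.28, adjusted p = 0.0194). With quantile normalization it was 0.48 (adjusted p = 0.106), and the call was also lost without cHet input replicate 1 or 2 or cHet polysome replicate 1 or 2. Fitting without the filter on low values lost it too. In cKO input Jund gave 75.2, 59.0 and 96.6 FPKM and on cKO polysomes 63.2, 97.1 and 154. The spread was wide and the groups overlapped, since replicate 1 was lower on polysomes than in input. The cKO difference was 0.38 (adjusted p = 0.310), and 0.70 without cKO polysome replicate 1 (adjusted p = 0.0339).

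As a share of the summed FPKM of Jun, Junb and Jund, Jund took 68.3% ± 0.768 in cHet input (SD, n = 3) and 87.2% ± 2.98 on cHet polysomes. The shares did not overlap, at 67.8% to 69.2% and 83.8% to 89.1%. In cKO the share was 76.1% ± 4.20 in input and 83.9% ± 9.56 on polysomes, where the libraries ran from 73.4% to 92.2%. The cKO ranges overlapped, since input ran from 71.4% to 79.4%, and in cKO lysate 1 the share was lower on polysomes (73.4%) than in input (77.5%). These shares follow from the 3 genes' own values.

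Fos, the founding FOS subunit, was low, at 0.316 to 1.08 FPKM over the 12 libraries, and did not pass the filter. It lies at chr12:85473890-85477273. Its cHet input libraries gave 1.02, 1.08 and 0.919 FPKM and its cHet polysome libraries 0.710, 0.316 and 0.600, from 8 to 75 reads. Without overlap, Fos was lower on polysomes in 3 of 3 lysates, by 0.84 on average (log2 −0.84, exact permutation p = 0.1, two-sided, the smallest that 3 against 3 can give). This test, like the same test in cKO below, treated input and polysome libraries as independent and did not use their pairing by lysate. In cKO input Fos gave 0.873, 0.683 and 0.967 FPKM and on polysomes 0.905, 0.717 and 0.997. Each cKO lysate was thus at nearly the same level in both fractions, with ratios of 1.03 to 1.05. The cKO difference was 0.05 (exact permutation p = 0.7). The 2 genotypes' differences were apart by 0.89, with an exact permutation p of 0.1, again the smallest possible. Fitted without the filter on low values, Fos fell on cHet polysomes (adjusted p = 0.0458).

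Fosb, another FOS family member, gave 0.0160 to 0.138 FPKM over the 12 libraries, from 2 to 27 reads. Its groups overlapped in every comparison. At this depth no difference could be seen, with exact permutation p from 0.5 to 1 over the 5 comparisons.

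Egr1, a zinc finger transcription factor induced by serum and by ERK signalling, lies on chromosome 18. It gave 2.95, 2.48 and 2.59 FPKM in cHet input and 1.96, 1.97 and 1.88 on cHet polysomes. Polysome libraries all lay below input and Egr1 fell, by 0.44 (log2 −0.44, SE 0.18, adjusted p = 0.0495). That call sits at the threshold and was lost in each of the 6 fits that left out 1 cHet library. It was also lost without the filter on low values, with quantile normalization and with a robust empirical Bayes step in limma. In cKO Egr1 gave 2.60, 2.25 and 2.30 FPKM in input and 2.52, 1.66 and 1.64 on polysomes. The groups overlapped through replicate 1, and the difference was −0.31 (adjusted p = 0.193). Without cKO polysome replicate 1 it was −0.50 (adjusted p = 0.0141).

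Ier2, a nuclear immediate early protein, and Ier5, which is known to act with heat shock factor 1, are both single-exon genes. Ier2 lies at chr8:84661331-84662852. It gave 51.0, 45.2 and 45.9 FPKM in cHet input and 43.3, 41.4 and 34.5 on polysomes. The groups did not overlap, but the difference of −0.26 (SE 0.18, adjusted p = 0.245) did not pass. It was −0.48 after scaling by protein-coding genes (adjusted p = 0.0324). Quantile normalization gave −0.55 (adjusted p = 0.0158). In cKO input Ier2 gave 31.5, 42.8 and 51.8 FPKM and on polysomes 44.5, 36.4 and 45.1. The groups overlapped, and the difference of 0.02 took the opposite sign with both those scalings.

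Ier5 lies at chr1:155096361-155099636, and fell furthest of the tested members in controls. Its cHet input libraries gave 22.2, 22.1 and 22.6 FPKM and its polysome libraries 10.7, 9.43 and 9.51. The groups were far apart, and the difference was −1.17 (SE 0.19, adjusted p = 4.38e-04). Only 6.49% of the 13610 genes tested had a more negative difference. In cKO it gave 19.5, 20.7 and 25.9 FPKM in input and 21.2, 12.9 and 13.0 on polysomes. Replicate 1 was higher on polysomes than in input and the groups overlapped. The cKO difference was −0.51 (adjusted p = 0.0511), and −0.75 without cKO polysome replicate 1 (adjusted p = 0.00131).

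Atf3, a stress-induced member of the ATF/CREB family that pairs with JUN proteins, lies at chr1:191170296-191218039. It gave 1.59, 1.59 and 1.80 FPKM in cHet input and 3.49, 2.94 and 2.93 on polysomes, from 68 to 171 reads there. It rose, with groups that did not overlap, by 0.87 (SE 0.15, adjusted p = 6.71e-04). In cKO it gave 1.65, 1.64 and 1.43 FPKM in input and 2.35, 2.85 and 2.87 on polysomes. It rose there too, by 0.73 (adjusted p = 0.00408), in 3 of 3 lysates. Fitted on the 6 cKO libraries alone, the difference kept its size and lost the call (adjusted p = 0.0695).

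Myc, the growth-promoting transcription factor that is also an early response gene, lies at chr15:61985391-61990374. It gave 10.3, 8.80 and 9.04 FPKM in cHet input and 6.91, 5.72 and 5.30 on polysomes. It fell, with groups that did not overlap, by 0.65 (log2 −0.65, SE 0.14, adjusted p = 0.00281). In cKO it gave 7.99, 8.50 and 9.90 FPKM in input and 7.38, 6.29 and 7.45 on polysomes. The groups did not overlap but were close, and the difference of −0.32 did not pass (adjusted p = 0.109).

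**Figure D2:**
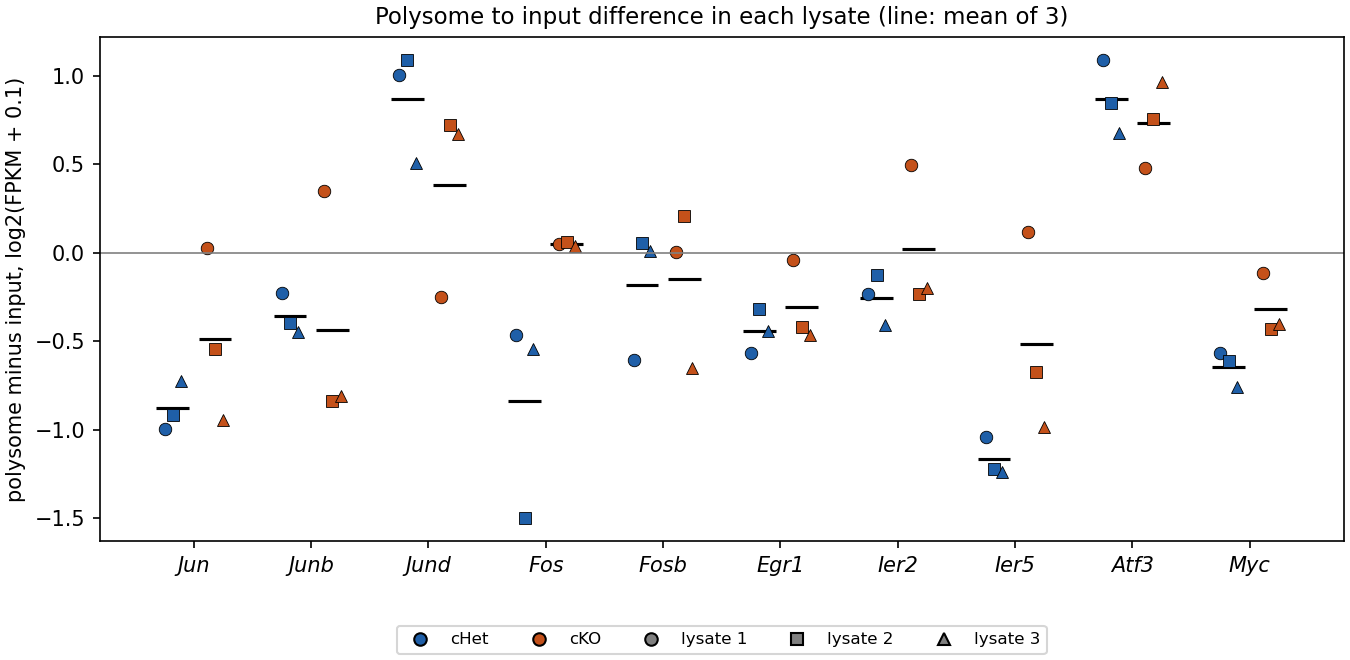
Polysome minus input difference, log2(FPKM + 0.1), of the 10 genes in each lysate (points, by genotype colour and lysate shape), with the mean of 3 as a line. In cHet Jun, Ier5 and Myc are below 0 in 3 of 3 lysates and Jund and Atf3 above it, and the 3 cKO lysates of Fos sit at about 0.05. The cKO lysate 1 (circle) is nearer to 0 than lysates 2 and 3 for Jun, Junb, Jund, Fosb, Egr1, Ier5, Atf3 and Myc. For Fos and Ier2 it is not.

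In all, 6 of the 8 tested members were called in controls, 2 higher (Jund, Atf3) and 4 lower (Jun, Egr1, Ier5, Myc), against 53.2% of the 13610 genes tested. The member groups did not overlap for 8 of 8, against 75.3% of all genes. Of all genes 3717 were higher and 3525 lower. Scaling by protein-coding genes changed this to 2471 and 4578 and moved the median of all genes from 0.02 to −0.21, and the 6 called members kept their direction. Read against those shares, the number of calls among the members is not a result about them.

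In cKO 1 of 8 was called (Atf3, higher), against 32.5% of the genes tested, and 2 of 8 did not overlap (Atf3, Myc), against 35%. Without cKO polysome replicate 1 the count was 6 of 8 (Jund and Atf3 higher, Jun, Junb, Egr1 and Ier5 lower), against 44.4%. In cKO lysate 1 the polysome to input ratio of Jun was 1.02, whereas it was 0.685 and 0.517 in the other lysates. The same library lay nearest to input on the first component.

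**Figure D3:**
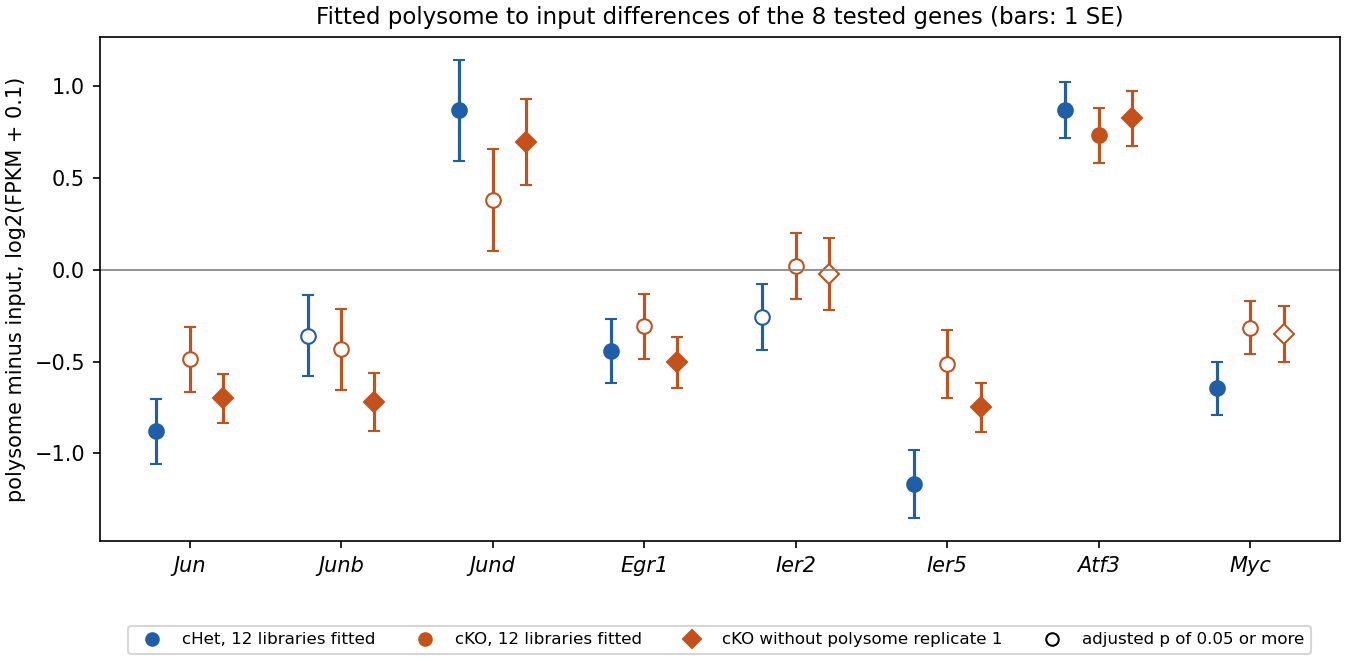
Fitted polysome minus input differences, log2(FPKM + 0.1), of the 8 tested genes, with bars of 1 SE. Filled symbols have an adjusted p under 0.05. In cHet 6 genes are filled, in cKO 1 (Atf3), and in cKO without polysome replicate 1 (diamonds) 6.

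Whether the polysome to input difference itself depended on genotype was tested as an interaction over all 12 libraries. None of the 8 passed, 0 of 8 against 0% of the 13610 genes, with 638 genes at an unadjusted p under 0.05 and 0 called by voom. Ier5 differed most, by 0.65 (SE 0.26, adjusted p = 0.790), and by 0.42 without cKO polysome replicate 1. Jun differed by 0.39 (SE 0.25) and Jund by −0.49 (SE 0.39). Without cKO polysome replicate 1 these were 0.18 and −0.17. The SEs of the 8 differences ran from 0.20 to 0.39.

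In input, 0 of the 8 tested members were called between genotypes, against 0% of the 12977 genes (1943 at an unadjusted p under 0.05, and 0 called by voom). Jund differed by 0.48 (SE 0.18, adjusted p = 0.293), and its 3 cKO libraries were all above its 3 cHet libraries. Without cKO input replicate 3 the difference was 0.30, and with library quality weights 0.21. It was 0.65 without cKO input replicate 2 (limma adjusted p = 0.0971). Jun differed by −0.14 (SE 0.10, adjusted p = 0.517), and its 3 cKO libraries were all below. These 2 of 8 were the members whose groups did not overlap, against 29.3% of all genes. The other 6 members lay between −0.20 (Ier2) and 0.24 (Junb).

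On polysomes, 0 of the 8 were called, against 0% of the 12877 genes (2743 at an unadjusted p under 0.05, and 0 called by voom). Ier5 differed by 0.63 (SE 0.20, adjusted p = 0.157), and by 0.39 without cKO polysome replicate 1 (adjusted p = 0.120). Its 3 cKO libraries were above its 3 cHet libraries. Atf3 differed by −0.21 (SE 0.15, adjusted p = 0.440), with its cKO libraries all below. Ier5 and Atf3 were 2 of 8 without overlap, against 31.4% of all genes. Fos was 0.64 higher in cKO with an exact permutation p of 0.1, and its lowest cKO library (0.717 FPKM) was barely above its highest cHet library (0.710 FPKM).

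Some cell type marker sums differed between the genotypes in the same libraries. No gene of the cell type lists below was called between genotypes in either fraction. Limb mesenchyme markers summed to 844 to 1023 FPKM in cHet input and 1181 to 1431 in cKO input, without overlap, and to 1575 to 1760 and 1526 to 2229 on polysomes, with overlap. The input sums of the erythroid, endothelium, myoblast and cartilage lists overlapped between genotypes, the erythroid sums at 9080 to 23502 FPKM in cHet and 5688 to 14054 in cKO. Macrophage markers summed to 45.6 to 52.3 FPKM in cHet input and 59.5 to 82.9 in cKO input, and to 50.8 to 58.1 and 67.9 to 99.2 on polysomes. The sum of 99.2 was that of cKO polysome replicate 1. Epidermis markers summed to 392 to 408 and 462 to 526 FPKM in input, and to 255 to 269 and 336 to 566 on polysomes, with the 566 in cKO polysome replicate 1. Of the 12 markers in either list none was at 0 in a whole group, and 9 to 12 macrophage markers reached 1 FPKM. Heat shock and handling stress genes differed by a median of 0.54 on polysomes, 7 of 8 higher in cKO and 0 called, against a median of 0.02 over all genes. In input their median was −0.07, with 4 of 9 higher in cKO. Their polysome sums were 592 to 638 FPKM in cHet. In cKO they were 777 FPKM in replicate 1, and 660 and 741 in replicates 2 and 3. The list was not fitted without cKO polysome replicate 1. The part of these lists in the values of Ier5, Jund and Fos was not tested.

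The other genes of these pathways were counted by list, and each count is to be read against the 53.2% called over all genes, 3717 higher and 3525 lower of 13610. No count is taken as particular to its list. Of 10 tested AP-1 and related bZIP genes outside the members, 5 rose and 1 fell on cHet polysomes, with a median of 0.47 against 0.02 over all genes. Maff rose by 0.70 (adjusted p = 0.00413) and Batf by 1.40 (adjusted p = 0.00483). On polysomes all 10 had a negative cKO minus cHet difference, with a median of −0.22 and 0 called. Fosl1, a FOS family gene, was lowest at −1.18 (adjusted p = 0.110). In input 5 of 9 were positive, with a median of 0.01. The polysome sums of the list were 71.1 to 74.9 FPKM in cHet. In cKO they were 50.1 FPKM in replicate 1, and 66.4 and 64.8 in replicates 2 and 3. This list was not fitted without cKO polysome replicate 1.

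Of 30 other immediate early and early response genes tested, 5 rose and 8 fell on cHet polysomes, with a median of −0.10. Gadd45g, a growth arrest gene, rose by 0.83 (adjusted p = 0.00205), and Per1, a clock gene with early response, fell by 0.97 (log2 −0.97, adjusted p = 0.00290). Of 20 upstream kinases and transcription factors, 8 rose and 4 fell, with a median of 0.25. Srf, the serum response factor, rose by 0.74 (adjusted p = 0.00254), and its cofactor gene Mkl1 fell by 1.42 (log2 −1.42, adjusted p = 4.16e-04). Between genotypes, 23 of the 30 other early genes had a positive cKO minus cHet difference on polysomes, with a median of 0.16 and 0 called. In input 24 of the 30 were positive, with a median of 0.15 and 0 called. Medians over all genes were 0.02 on polysomes and −0.01 in input. This list too was not fitted without cKO polysome replicate 1.

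Of 10 MYC network genes, 6 rose and 1 fell on cHet polysomes, with a median of 0.57, and 7 had a positive difference. Max, the partner of MYC, rose by 1.20 (adjusted p = 1.35e-04). Of 12 AU-rich element binding and decay genes, 0 rose and 4 fell, with a median of −0.14, among them Khsrp, by 1.12 (log2 −1.12, adjusted p = 1.62e-04). Of 9 heat shock and handling stress genes, 1 rose and 6 fell, with a median of −1.09.

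Jun, Junb, Jund, Ier2 and Ier5 have 1 exon in their annotated coding transcripts, 5 of 10, against 2.82% of the 11872 protein-coding genes tested. Exon numbers here are those of coding transcripts, and Junb spans more of the genome than its exonic bases. Lack of introns was part of how the genes were chosen, so nothing is read from that share. These 5 did not move alike on cHet polysomes: Ier5 and Jun fell, Jund rose, and Junb and Ier2 did not pass. Among the 335 single-exon genes tested, 119 rose and 68 fell, with a median of 0.32, and without histone genes and members 86 of 279 rose and 66 fell, with a median of 0.18. Genes with more than 1 exon had a median of −0.02. By ATTTA copies, the cHet medians were 0.12 over genes with 0 copies and −0.15 over genes with 4 or more. In cKO they were 0.09 and 0.06. Any transcript without a 3′ UTR counts as 0 copies. Genes with TTATTTATT had a median of −0.06 in cHet. Of the tested members, Jun (4 copies), Ier5, Egr1 and Myc (2 each) fell in cHet, and Atf3 (3) and Jund (1) rose. Junb (2) and Ier2 (0) did not pass. A part of the copies in these differences was not tested.

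**Figure D4:**
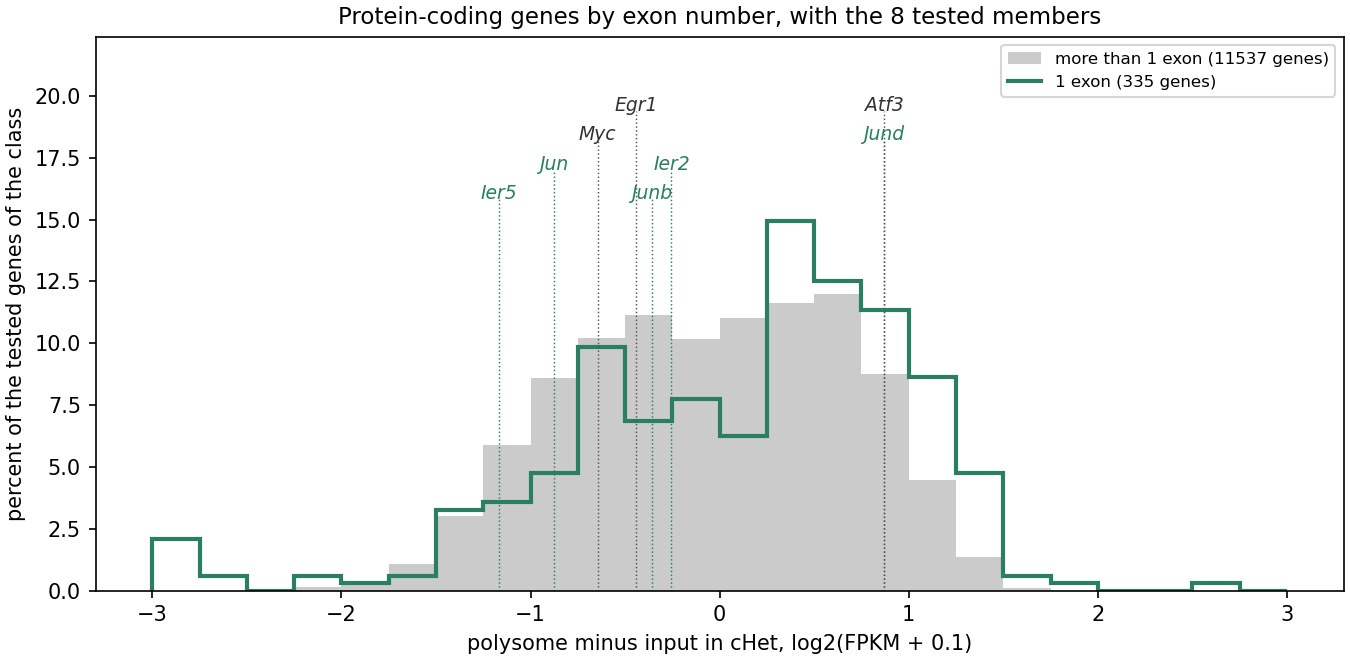
Distribution of the polysome minus input difference in cHet, log2(FPKM + 0.1), over protein-coding genes with 1 exon (line, 335 genes) and with more than 1 (grey, 11537 genes), in percent of each class. Values past the ends of the axis are counted in the outermost bars. Exon numbers are those of coding transcripts. Dotted lines mark the 8 tested members, with green names for those with 1 exon, and these lie on both sides of 0.

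GGACT, the core of the commonest m6A consensus, occurred in all 10 transcripts, 2 times in Atf3 to 7 times in Jun, against a median of 3 over protein-coding genes. Per kilobase it ran from 1.01 (Atf3) to 3.29 (Ier2), against 1.05. No methylation was measured in these libraries, and an occurrence of the letters says nothing of it.

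Across the 12 libraries, log2(FPKM + 0.1) of Jun and Ier5 had Pearson r = 0.92, and of Jun and Atf3 r = −0.93. Among the genes most like a member were Add1 for Jun (r = 0.99) and Ube2r2 for Jund (r = 0.99). For Ier2 the closest gene, Tars2, reached r = 0.88. These values describe the libraries, which share the 4 groups and their depths, and carry no test.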

How the data were processed

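The deposited table holds FPKM per gene, computed by the authors. Reads were aligned with HISAT2 2.0.5 to mm10 and counted with featureCounts 1.5.0-p3, per the submitters' processing notes. Strandedness and the handling of reads in overlapping genes are not given in the sources used here. FPKM times gene length was divided by the smallest positive product of the library, which was taken as 1 read. This gave whole numbers for 100% of positive values in each library (tolerance 0.01). They were used as the read numbers and for voom as an alternative.

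Members and lists were chosen with earlier results of these data known. Differences were tested with limma 3.58.1 (R 4.3.3) with an intensity trend on log2(FPKM + 0.1), over genes with an FPKM of at least 1 in at least 3 libraries fitted, two-sided, with Benjamini-Hochberg adjustment over all genes and a threshold of 0.05. A fold on this scale understates changes of low genes. Genotype comparisons used the 6 libraries of a fraction, the others all 12. Fos and Fosb, under the filter, had exact permutation tests. Those of polysome against input shuffled the libraries of a genotype without keeping lysates paired. That of the interaction shuffled lysate differences between genotypes. Named genes were the 10 members, up to 4 genes of each list by smallest p per comparison, and the closest 2 genes by Pearson r, of which 1 is not reported here. The procedure was tested on simulated data.

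Per the design text polysomes were purified from the input fractions, so input and polysome libraries of one number were taken as one lysate (correlations of deviations 0.0525 to 0.249). The main limma fits used group means and left this pairing out. It entered the limma fits only in the replicate block, an alternative setting. Across genotypes the numbers share only a name. Annotation came from GENCODE (54495 of 54532 identifiers matched) and promoters from RefSeq on GRCm38.p6. The labels call the replicates biological, and whether embryos were pooled or shared a litter is not given. Python 3.11.15, pandas 2.3.3 and numpy 2.4.6 were used.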

Additional observations from a re-analysis of the deposited data

Results flagged for a closer look

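Fos gave a polysome to input difference that was 0.89 higher in cKO than in cHet (log2 scale). All 3 cHet lysates were lower on polysomes (ratios 0.697, 0.294 and 0.653) and the 3 cKO lysates were at nearly the same level in both fractions (1.04, 1.05 and 1.03; difference 0.05, exact permutation p = 0.7). It is listed because the lysate differences of the genotypes had opposite signs, by a small margin in cKO. The exact permutation p was 0.1, the smallest possible here. The lowest value, in cHet polysome replicate 2, rests on 8 reads. At a pseudocount of 1 the difference was 0.41.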

How the results depend on the processing

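Of the 8 tested members, the number called on polysomes against input in cKO was 1, and it was 3 with a pseudocount of 1, 2 with a filter at FPKM 5, 4 with protein-coding scaling, 3 with quantile normalization, 7 with library quality weights, 0 when the 6 cKO libraries were fitted alone, 6 without cKO input replicate 3 and cKO polysome replicate 1, and 1 to 6 when a replicate was left out. In cHet it was 6, with 4 to 8 over the settings and 4 to 5 when a cHet library was left out. For genotype in input, on polysomes and for the interaction it was 0 in every setting run.

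Signs turned for differences that had not been called. In input Atf3 became 0.0109 with quantile normalization and 0.0111 with weights. On polysomes weights gave Junb −0.0832, Ier2 −0.13, Myc −0.00753 and Jund 0.0243, protein-coding scaling gave Jund 0.0333 and Egr1 0.0179, and quantile normalization gave Jund 0.0207. In cKO Ier2 became −0.11, −0.20 and −0.11 with protein-coding scaling, quantile normalization and weights. For the interaction protein-coding scaling gave Junb 0.0177, and leaving out both libraries gave Jund 0.00723 and Egr1 −0.0863. With 1 library left out, ranges crossed 0 for Ier5 in input (−0.15 to 0.0550), for Junb (−0.12 to 0.34), Jund (−0.34 to 0.30), Egr1 (−0.22 to 0.0757) and Ier2 (−0.0199 to 0.18) on polysomes, for Ier2 in cKO (−0.17 to 0.19) and for Junb (−0.36 to 0.10) and Egr1 (−0.0621 to 0.24) in the interaction. The cause was not tested.

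Over all genes, called counts were 0 in input and on polysomes, but 1084 and 2621 with weights, 82 and 184 with all 12 libraries fitted, and 0 to 326 and 0 to 231 with a library left out. In cHet 7242 became 11107 with weights. In cKO 4424 became 8840 with weights, 934 with its 6 libraries alone, 8012 without both libraries and 2441 to 6023 with a library left out. For the interaction 0 became 1 with a pseudocount of 0.01, 7 without the filter and 13 with weights. The replicate block changed no member's call: 6 in cHet and 1 in cKO, and it moved the all-gene count on polysomes from 0 to 42, although across genotypes a number pairs nothing. Fos and Fosb rest on 2 to 75 reads, so depth limits them.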
